A study of Homo sapiens with 20 samples.

Results

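The genes described here make ribosomes: 49 genes of ribosome biogenesis and of RNA polymerase I transcription, chosen by name from the 58676 genes of the deposited count table. The choice was made with earlier results of these data known. All 49 were found by symbol, and 48 had enough reads to be tested, with group means of 81 to 5779 counts per library. They were followed in 20 RNA sequencing libraries of one immortalized human pericyte line, CL 05008-CLTH, labelled wild-type and grown in serum-containing medium. There were 5 libraries of cells given eNAMPT at 500 ng/mL with PDGF-BB at 20 ng/mL, 5 of cells given PDGF-BB at 20 ng/mL alone, 5 of cells given eNAMPT at 500 ng/mL alone, and 5 of control cells. Per the labels, treatment lasted 4 hours and the proteins were recombinant human ones. Extracellular NAMPT (eNAMPT) is the secreted form of an NAD salvage enzyme, and PDGF-BB, a dimer of PDGF B chains, is a mitogen that signals through PDGFRB. The labels call the 5 libraries of a group biological replicates of this single line. The p-values therefore measure the spread between its cultures and say nothing of other pericytes.

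A ribosome is assembled in the nucleolus around ribosomal RNA that RNA polymerase I transcribes. Small nucleolar RNPs then guide chemical marks onto that RNA. The small subunit processome and a separate set of large subunit factors fold and cut it, and export factors finish the particles in the cytoplasm. Growth factors are known to raise ribosome production in many cell types as cells prepare to grow, and the transcription factor MYC is a well known activator of these genes. The study's purpose, per its design text, was to learn how eNAMPT regulates pericytes, so the questions here are whether ribosome biogenesis transcripts moved with eNAMPT, with PDGF-BB, or differently with both.

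Gene counts ranged from 2894878 to 4011066 per library, and the reads of spike-in transcripts, counted apart, came to 1.597% to 3.00% of the gene counts. The members took 0.894% ± 0.0528 (SD, n = 5) of gene counts with both proteins, 0.885% ± 0.0487 with PDGF-BB, 0.829% ± 0.0515 with eNAMPT and 0.835% ± 0.0659 in control cells. No 2 libraries of a group were copies of one another. The variance between their counts was at least 2.65 times that of sampling noise (chi-square per degree of freedom). Of 10 pericyte markers, 9 were expressed well enough to test, summing to 321 to 444 CPM (counts per 1000000 gene counts, after TMM scaling). Of 5 fibroblast genes, which summed to 3782 to 5170 CPM, COL1A1 averaged 3299 CPM, COL1A2 946 CPM and PDGFRA 92.5 CPM over the 20 libraries, while DCN and LUM averaged 5.88 and 4.56 CPM. Markers of other lineages were low: 5 endothelial genes summed to 1.86 to 8.26 CPM, 5 epithelial genes to 0.306 to 4.93 CPM and 5 leukocyte genes to 16.8 to 27.6 CPM, the last mostly CD14. None of these genes was at 0 in every library. The sums overlapped between PDGF-BB and control libraries, and their part in the results was not tested. In bulk libraries a change in the makeup of the culture and a change in RNA per cell cannot be told apart.

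Many of these genes carry the same short sequence at their start. The E-box CACGTG, which MYC and related factors are known to bind and which reads the same on both strands, was searched in RefSeq promoter windows of 300 bases (250 before to 50 after the start, GRCh38.p14). Of the 41 members with a window, 22 held it, or 53.7%. The share was 8.77% of all 27305 genes with a window, and 12.7% of the 9194 of these that were expressed here well enough to be tested. POLR1E, NOP58, NOLC1, BOP1, RRP1B, RRP12, DDX18 and RRS1 were not matched to a window. Of the 19 members at an unadjusted p under 0.05 with PDGF-BB (edgeR, 10 libraries against 10), 8 held the E-box. The rest of the 19 had a window without it, as NOP16 and NIP7 did, or no window. Each of the 8 is given as 30 bases on the gene's strand, with the E-box in capitals. For NOP10 the match nearest the start is given.
WDR43, chr2:28894658-28894687, plus strand: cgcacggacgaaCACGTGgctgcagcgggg
DDX21, chr10:68956604-68956633, plus strand: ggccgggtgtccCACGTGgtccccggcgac
RRP9, chr3:51941892-51941921, minus strand: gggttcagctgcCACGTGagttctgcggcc
LYAR, chr4:4290068-4290097, minus strand: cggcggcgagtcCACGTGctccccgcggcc
NOP10, chr15:34343130-34343159, minus strand: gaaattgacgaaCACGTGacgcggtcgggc
GAR1, chr4:109815781-109815810, plus strand: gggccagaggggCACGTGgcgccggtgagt
BYSL, chr6:41921515-41921544, plus strand: ttcttcagtcccCACGTGcgatccttcccg
MRTO4, chr1:19251807-19251836, plus strand: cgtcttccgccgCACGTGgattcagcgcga
The E-boxes printed lie from position -64 for LYAR to position 32 for GAR1 relative to the RefSeq start, and NOP10 has another at -170. The window itself allowed no match beyond 250 bases before or 50 after the start. A match is a string of letters and no proof that a factor sits there.

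PDGF-BB was followed by a small rise in a few members, while no member passed the test for eNAMPT. Over the 10 libraries with PDGF-BB (with or without eNAMPT) against the 10 without it, 5 of the 48 tested members rose and 0 fell at an adjusted p under 0.05 (edgeR quasi-likelihood, Benjamini-Hochberg over 12111 genes). The 5 were WDR43, DDX21, RRP9, NOP16 and LYAR, and their rises were of 0.24 to 0.34 on the log2 scale. Among all genes tested, 2.96% rose and 1.01% fell in this comparison, and 5 of 48 members stand against that background. Because the members were chosen with earlier results of these data known, this contrast is a description and no test of the pathway. Of 115 other genes of the pathway, 1.74% rose. At an unadjusted p under 0.05, 19 members were higher and 0 lower, against 8.18% of all genes higher and 6.96% lower. The members' median log2 fold change was 0.12 and 38 of 48 were positive, whereas the median of all genes was -0.01. When libraries were scaled by the spike-in transcripts instead, the 5 calls were lost, the median of all genes moved to -0.07 and that of the members to 0.06, with 34 of 48 positive. The members' median then lay 0.13 above that of all genes, against 0.12 above it with TMM.

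**Figure D1:**
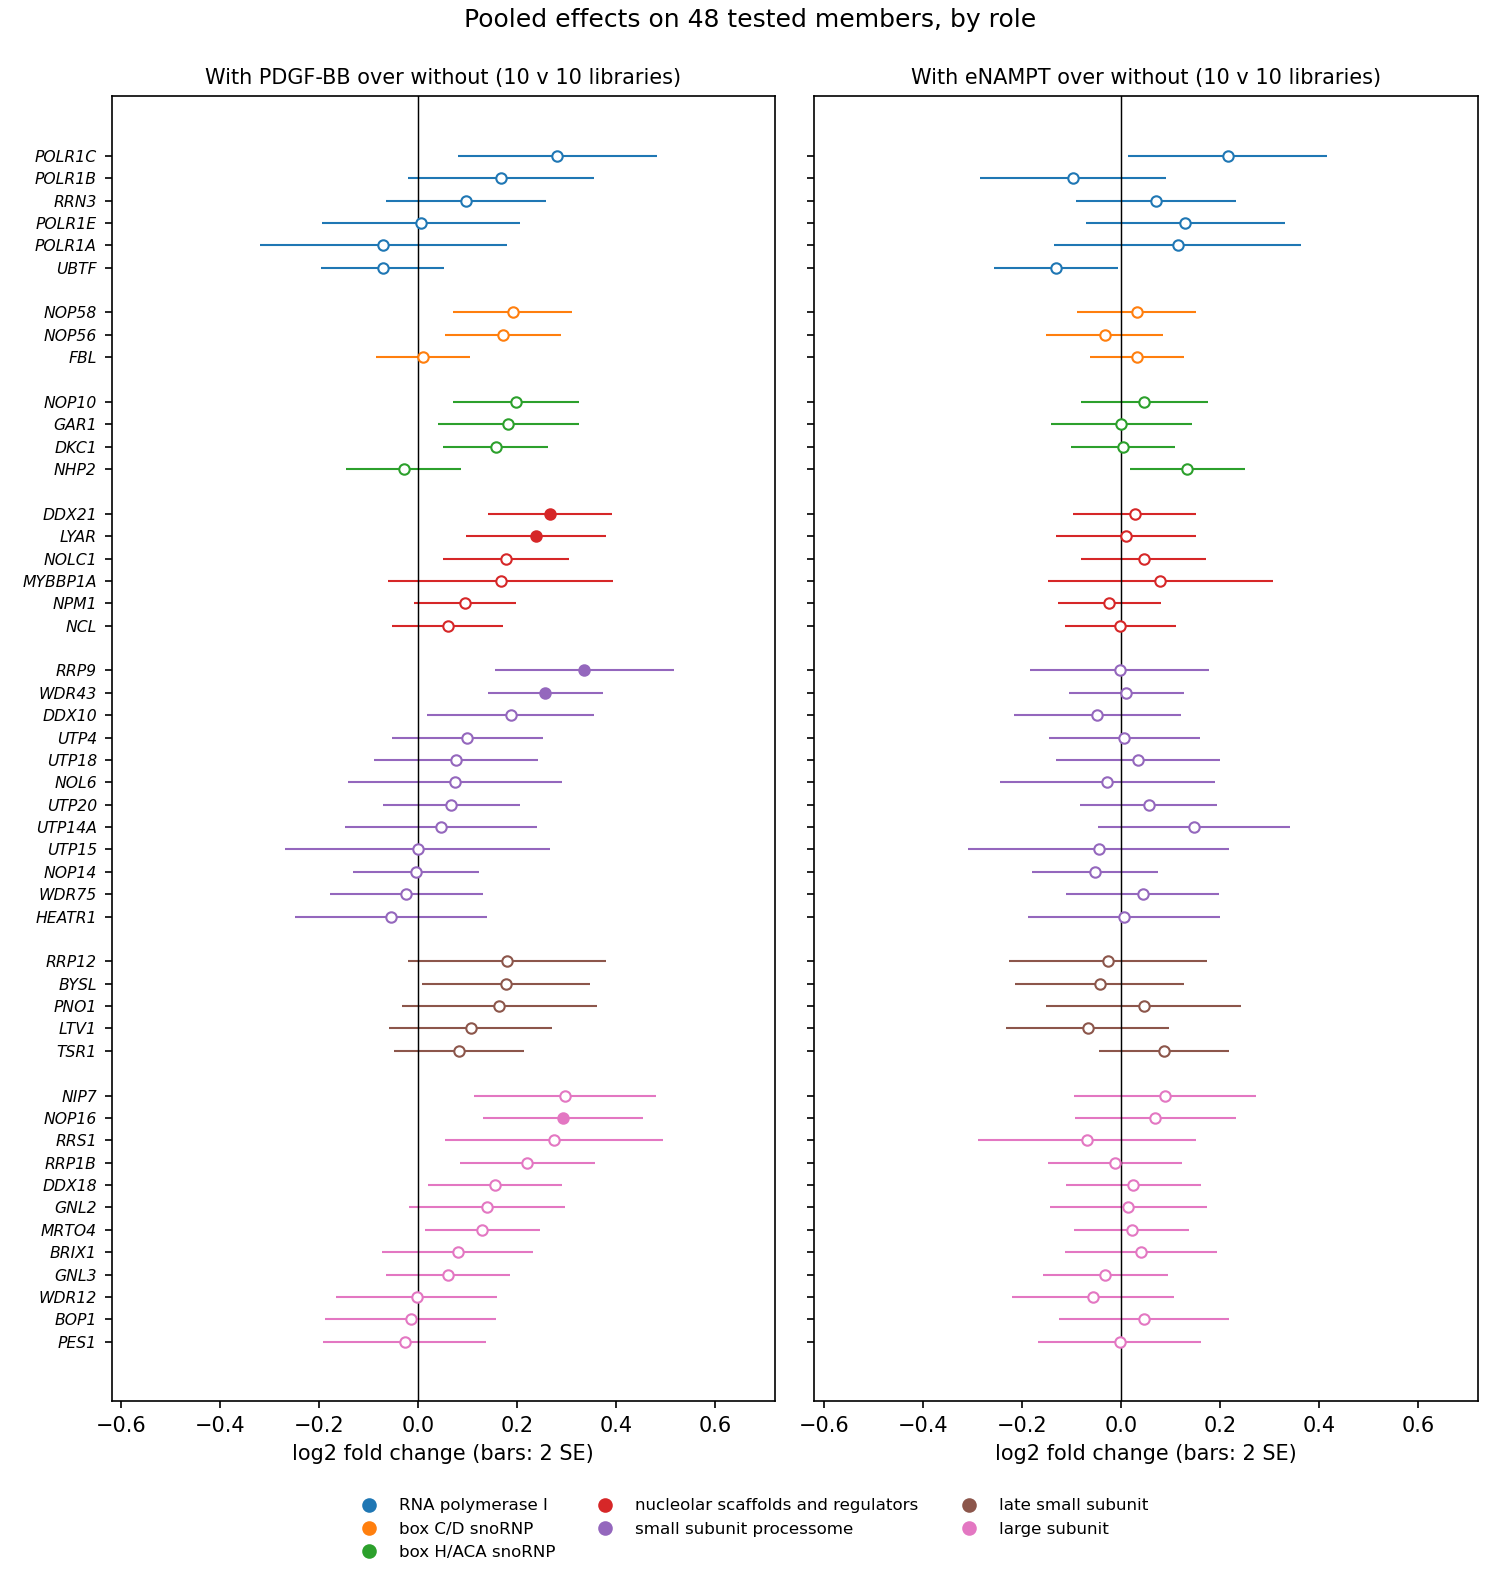
Log2 fold change of each of 48 tested members, in rows by role group, for libraries with PDGF-BB over those without (left) and with eNAMPT over those without (right), 10 libraries against 10 after TMM scaling. Points are edgeR estimates, bars span 2 standard errors each way, and filled points passed at an adjusted p under 0.05: 5 with PDGF-BB and 0 with eNAMPT. With spike-in scaling no point would be filled, 34 of 48 would be above 0 on the left and 9 of 48 on the right.

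The small subunit processome, the large particle that forms on newborn ribosomal RNA, held the member with the smallest p, WDR43. WDR43 (chr2:28894643-28948222, GENCODE 29 on GRCh38, plus strand), a processome subunit whose gene also hosts 3 annotated snoRNAs, was measured at 255, 226, 275, 280 and 289 CPM with both proteins and at 235, 258, 238, 282 and 266 CPM with PDGF-BB. It was at 205, 218, 200, 212 and 244 CPM with eNAMPT and at 191, 214, 211, 222 and 263 CPM in control cells. All 10 libraries with PDGF-BB lay above the mean of the 10 without it, although replicate 5 of the control and eNAMPT groups reached into their range. The log2 fold change was 0.26 with PDGF-BB (SE 0.06, edgeR adjusted p = 0.00377), a 1.19-fold rise.

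RRP9 (chr3:51933430-51941941, minus strand) encodes a protein of the U3 snoRNP, the guide RNA particle of the processome. It stood at 52.0, 46.6, 45.5, 51.8 and 64.4 CPM with both proteins and at 45.2, 44.8, 60.5, 58.7 and 67.0 CPM with PDGF-BB. The values were 42.0, 51.4, 44.2, 39.2 and 41.5 CPM with eNAMPT and 34.9, 36.2, 49.6, 44.1 and 41.6 CPM in control cells. The groups overlapped, with all 10 PDGF-BB libraries above the mean of the others, and the log2 fold change was 0.34 (SE 0.09, edgeR adjusted p = 0.0211). The call was lost without PDGF-BB replicate 5 or without eNAMPT+PDGF-BB replicate 5, where the adjusted p was at most 0.0585.

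Of the 12 processome genes tested, these 2 passed and 8 had a positive estimate, with a median of 0.07. DDX10, an RNA helicase of the processome, averaged 90.8 CPM ± 16.8 (SD, n = 5) with both proteins, 85.3 ± 9.82 with PDGF-BB, 72.4 ± 8.27 with eNAMPT and 82.6 ± 16.2 in control cells. Its log2 fold change with PDGF-BB was 0.19 (SE 0.08, edgeR adjusted p = 0.266). The subunit genes HEATR1, WDR75, UTP15 and NOP14 had estimates between -0.06 and 0.00. Over the 12 genes the estimates ran from -0.06 for HEATR1 to 0.34 for RRP9.

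Among the nucleolar scaffolds, chaperones and regulators, 2 of 6 rose and all 6 had positive estimates. DDX21 (chr10:68956128-68985073, plus strand) is an RNA helicase that links RNA polymerase I transcription to snoRNA-guided modification. It was at 764, 873, 875, 1064 and 882 CPM with both proteins and at 822, 724, 811, 1000 and 972.2 CPM with PDGF-BB. The libraries with eNAMPT had 677, 646, 717, 765 and 862 CPM, and the control libraries 688, 605, 728, 761 and 859 CPM. Of the 10 PDGF-BB libraries 9 lay above the mean of the others, and the ranges overlapped. The log2 fold change was 0.27 (SE 0.06, edgeR adjusted p = 0.00573).

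LYAR (chr4:4267701-4290169, minus strand), a zinc finger nucleolar protein, had 137, 126, 151, 160 and 160 CPM with both proteins and 117, 132, 128, 142 and 156 CPM with PDGF-BB. It had 108, 111, 119, 129 and 108 CPM with eNAMPT and 116, 103, 125, 112 and 164 CPM in control cells, where replicate 5 was the highest value of all 20. Its log2 fold change was 0.24 (SE 0.07, edgeR adjusted p = 0.0447). The call held in 5 of the 20 fits that each left out 1 library, those without control replicate 5, eNAMPT replicate 4, PDGF-BB replicate 1 or eNAMPT+PDGF-BB replicate 1 or 2, and the adjusted p reached 0.105 in the others.

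NCL and NPM1 did not pass. NCL (nucleolin), which binds ribosomal RNA and its chromatin, averaged 1708 CPM ± 194 (SD, n = 5) with both proteins, 1700 ± 120 with PDGF-BB, 1629 ± 144 with eNAMPT and 1642 ± 241 in control cells. Its log2 fold change with PDGF-BB was 0.06 (SE 0.06, edgeR adjusted p = 0.699). For NPM1 (nucleophosmin), the histone and ribosome chaperone, the estimate was 0.09 (SE 0.05, edgeR adjusted p = 0.401). Only 54.2% of the NPM1 reads in the second deposited count table are in the first one, and 67.2% of those of GNL3. The share was 83.6% for NHP2, 84.3% for DDX10, 93.8% for NOP56 and 94.8% for UTP18. These were the 6 members under 95%, and the levels of these genes are less certain.

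**Figure D2:**
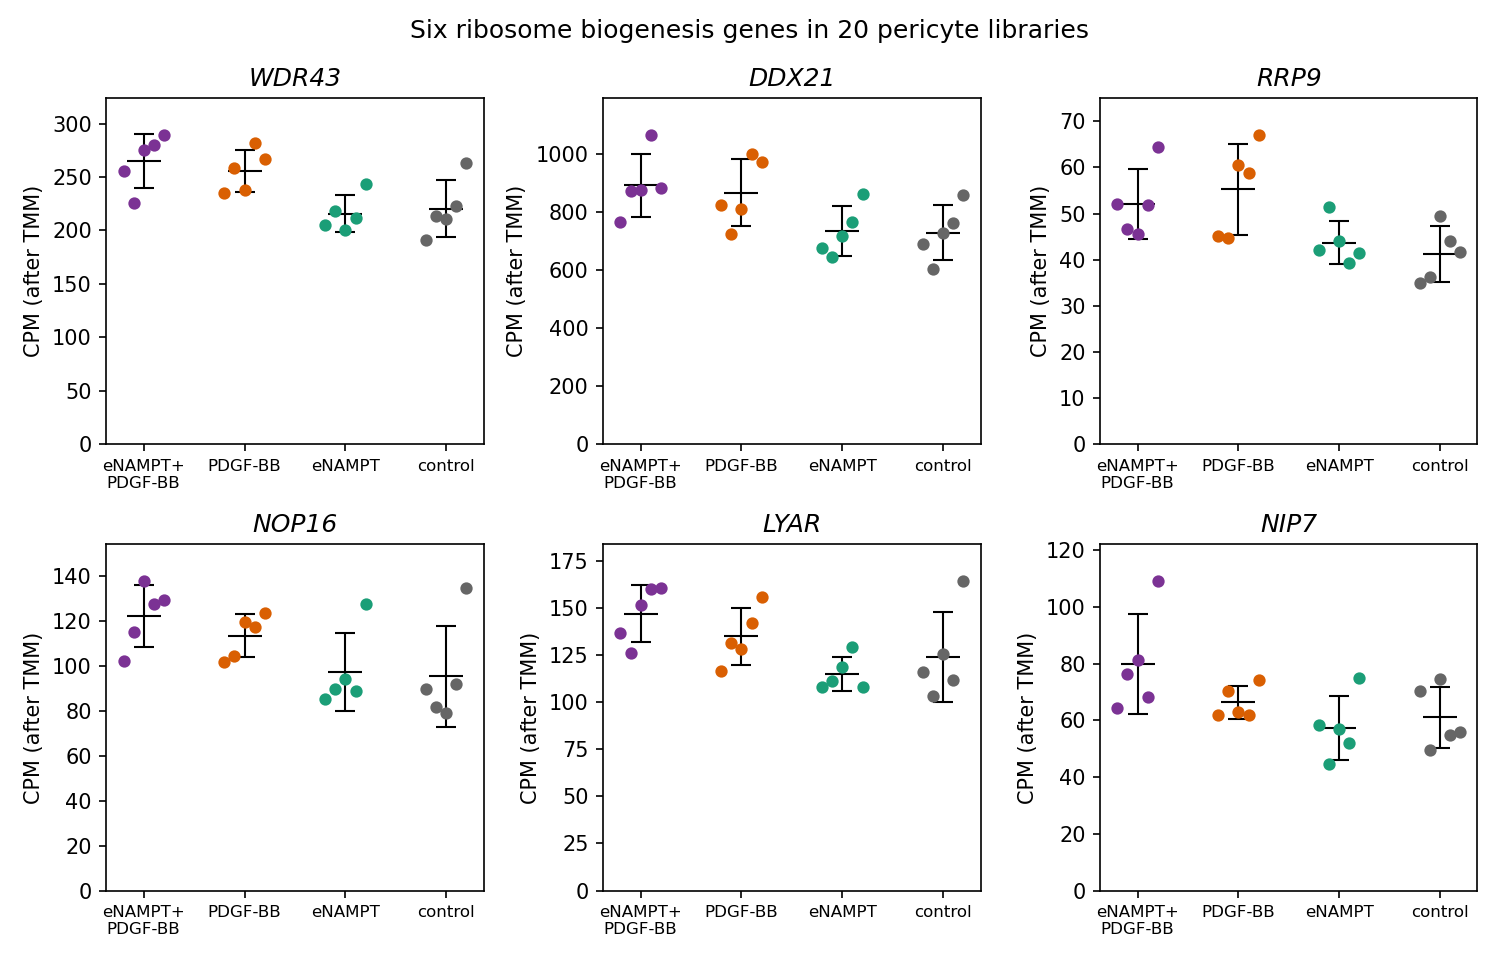
CPM after TMM scaling (y axes from 0) of the 6 members that passed in any comparison, in 4 groups of 5 libraries. Points are libraries in order of replicate number, and the bars are the group mean and SD. WDR43 and DDX21 sit higher in both groups with PDGF-BB than in the groups without it, with overlapping ranges.

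The large subunit factors gave the other call of this comparison. NOP16 (chr5:176383938-176388975, minus strand), a nucleolar protein of the 60S precursor, was at 102, 115, 138, 127 and 129 CPM with both proteins and at 102, 105, 119, 117 and 123 CPM with PDGF-BB. It was at 85.2, 89.4, 94.3, 88.9 and 128 CPM with eNAMPT and at 89.7, 81.7, 78.8, 91.9 and 134 CPM in control cells. All 10 PDGF-BB libraries exceeded every library without PDGF-BB except the replicate 5 libraries of the eNAMPT and control groups. The log2 fold change was 0.29 (SE 0.08, edgeR adjusted p = 0.0273). The call was lost without any one of control replicates 2 and 3, eNAMPT replicates 1, 2 and 4, PDGF-BB replicates 3 and 5 or eNAMPT+PDGF-BB replicate 3, where the adjusted p reached 0.0666. Genes on the opposite strand cover 20.0% of its exonic bases, and whether counting used strand is not given in the sources used here.

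NIP7 (chr16:69337996-69343111, plus strand), which works in 60S maturation, was the member that passed when the groups with eNAMPT were compared alone. It was at 64.2, 76.4, 81.3, 68.3 and 109 CPM with both proteins, against 58.6, 44.7, 57.0, 52.0 and 75.1 CPM with eNAMPT. The groups overlapped through eNAMPT replicate 5, and all 5 libraries with both proteins lay above the eNAMPT mean. The log2 fold change was 0.47 (SE 0.13, edgeR adjusted p = 0.0476), where 1.18% of all genes rose and 0.347% fell. It held in 3 of the 10 fits that left out 1 library, those without eNAMPT replicate 5 or without eNAMPT+PDGF-BB replicate 1 or 4, and the adjusted p reached 0.251 in the others. It was also lost with spike-in scaling (edgeR adjusted p = 0.851), with limma-voom (adjusted p = 0.0545), with the second count table (0.0715) and in a fit of these groups alone (0.0571). Without eNAMPT, NIP7 was at 62, 70.4, 63.2, 61.8 and 74.4 CPM with PDGF-BB and at 70.4, 49.7, 74.5, 55 and 56 CPM in control cells, which gave 0.12 (SE 0.13, edgeR adjusted p = 0.868). Opposite-strand genes cover 20.2% of its exonic bases.

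Of the 12 large subunit genes tested, 1 passed over the 10 against 10 libraries and 9 had a positive estimate, with a median of 0.13. RRP1B, a nucleolar regulator, missed the threshold at 0.22 (SE 0.07, edgeR adjusted p = 0.0557), and NIP7 at 0.30 (SE 0.09, adjusted p = 0.0584). DDX18, a helicase of early 60S particles, averaged 203 CPM ± 31.7 (SD, n = 5) with both proteins, 195 ± 25.5 with PDGF-BB, 178 ± 14.8 with eNAMPT and 179 ± 21.2 in control cells. The PES1, BOP1 and WDR12 genes, whose proteins form one complex of 60S assembly, lay together at -0.03, -0.02 and 0.00, each with an SE of 0.08 or 0.09.

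NOP2, a ribosomal RNA methyltransferase of the large subunit, was not tested. It had 7 counts over the libraries with both proteins, 16 with PDGF-BB, 3 with eNAMPT and 5 in control cells, 31 in all. In GENCODE 29 another protein-coding gene on the same strand covers 54.4% of its exonic bases, and that gene is listed at 0 counts in every library. How reads in the shared bases were counted is not given in the sources used here, so the low NOP2 count is no measure of its expression.

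The late small subunit factors, which act on 40S precursors up to export and final cleavage, numbered 5 and none passed. All 5 had positive estimates with PDGF-BB, with a median of 0.16. TSR1, a GTPase-like 40S factor, averaged 115 CPM ± 12.9 (SD, n = 5) with both proteins, 105 ± 4.91 with PDGF-BB, 106 ± 10.7 with eNAMPT and 103 ± 12.4 in control cells, a log2 fold change of 0.08 (SE 0.07, edgeR adjusted p = 0.627). BYSL, whose E-box is printed above, gave 0.18 (SE 0.09, adjusted p = 0.305).

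In the snoRNP core, the partners within a complex did not share one value. For the box H/ACA complex, which guides pseudouridylation, NOP10, GAR1 and DKC1 gave 0.20, 0.18 and 0.16 with PDGF-BB (edgeR adjusted p = 0.0751, 0.171 and 0.0916), and NHP2 gave -0.03 (SE 0.06, adjusted p = 0.884). DKC1, the pseudouridine synthase, was at 486, 493, 512, 447 and 610 CPM with both proteins and at 516, 492, 503, 471 and 556 CPM with PDGF-BB. It was at 447, 453, 429, 432 and 523 CPM with eNAMPT and at 445, 461, 424, 443 and 509 CPM in control cells, again with replicate 5 highest in each group. For the box C/D complex, which guides ribose methylation, NOP58 gave 0.19 (SE 0.06, adjusted p = 0.0665) and NOP56 gave 0.17 (SE 0.06, adjusted p = 0.0975). FBL (fibrillarin), the methyltransferase of the same complex, gave 0.01 (SE 0.05, adjusted p = 0.955). NOP56 averaged 400 CPM ± 33.2 (SD, n = 5) with both proteins, 396 ± 17.4 with PDGF-BB, 343 ± 32.3 with eNAMPT and 364 ± 58.9 in control cells. Differences between partners were not tested. The NOP56, NOP58 and DKC1 genes host 5, 4 and 2 annotated snoRNAs in their bodies, and 8 of the 49 members host at least 1.

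Of the 6 RNA polymerase I genes 0 passed, and 4 had estimates above 0 for PDGF-BB, with a median of 0.05. POLR1C, a subunit shared by RNA polymerases I and III, was at 24.8, 32.8, 46.8, 41.7 and 36.5 CPM with both proteins and at 31.3, 39.6, 33.5, 29.5 and 33.8 CPM with PDGF-BB. It was at 29.9, 34.9, 35.2, 30.3 and 30 CPM with eNAMPT and at 28.1, 22.9, 25.6, 25.4 and 27.6 CPM in control cells. All 5 libraries with PDGF-BB alone and all 5 with eNAMPT alone lay above the highest control library, a separation shown by 1.52% of all genes for PDGF-BB and 0.396% for eNAMPT. The log2 fold change over control was 0.50 with both proteins (SE 0.14, edgeR adjusted p = 0.0601), 0.37 with PDGF-BB (SE 0.14, adjusted p = 0.307) and 0.31 with eNAMPT (SE 0.14, adjusted p = 1.00). With both proteins, 1.63% of all genes rose over control and 0.347% fell, but 0 of 48 members did either, although 12 were higher and 1 lower at an unadjusted p under 0.05, against 5.98% of all genes higher and 4.95% lower. Opposite-strand genes cover 18.2% of the exonic bases of POLR1C.

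POLR1E, another polymerase I subunit, had the smallest p of the members for the interaction, the difference between the PDGF-BB effect with and without eNAMPT. It averaged 34.8 CPM ± 3.14 (SD, n = 5) with both proteins, 37.9 ± 7.66 with PDGF-BB, 41.3 ± 3.03 with eNAMPT and 31.8 ± 7.17 in control cells. The interaction was -0.49 (SE 0.20, edgeR adjusted p = 0.999). UBTF, the factor that opens ribosomal DNA for polymerase I, was the lowest of the 48 members with PDGF-BB at -0.07 (SE 0.06, adjusted p = 0.661). Its values were 143, 161, 137, 108 and 155 CPM with both proteins, 168, 169, 141, 156 and 182 CPM with PDGF-BB, 169, 150, 158, 147 and 159 CPM with eNAMPT and 172, 165, 159, 149 and 166 CPM in control cells. With both proteins it was 0.21 lower than with PDGF-BB alone (log2 fold change -0.21, SE 0.09, adjusted p = 1.00). RRN3, which brings polymerase I to the promoter, gave 0.10 with PDGF-BB (SE 0.08, adjusted p = 0.650).

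The PDGF-BB effect was measured in 2 sets of libraries that share none, without eNAMPT and in its presence. With both proteins against eNAMPT alone, 1 of 48 members rose (NIP7), 13 were higher and 0 lower at an unadjusted p under 0.05, against 6.17% of all genes higher and 4.70% lower, and the median was 0.14. With PDGF-BB against control, 0 of 48 passed (edgeR), 9 were higher and 0 lower at an unadjusted p under 0.05, against 5.57% of all genes higher and 4.08% lower, and the median was 0.11. In that comparison 1.05% of all genes rose and 0.165% fell. Under DESeq2, 3 members rose with both proteins against eNAMPT and 0 with PDGF-BB against control, where 1.52% and 1.22% of all genes rose. In both sets of libraries 36 of 48 members (75%) had a positive estimate and 4 a negative one, while 29.5% of all 12111 genes were positive in both and 31.1% negative in both. With spike-in scaling the median was 0.11 without eNAMPT and 0.00 in its presence, where the median of all genes moved to -0.14. Across the 48 members the estimates from the separate sets had a Pearson r of 0.38 and a Spearman rho of 0.54, given as a description since the members share libraries. Across all genes tested these were 0.34 and 0.29. WDR43 gave 0.30 with both proteins against eNAMPT (SE 0.08, edgeR adjusted p = 0.05004, just above the threshold, and 0.0253 with DESeq2) and 0.22 with PDGF-BB against control (SE 0.08, adjusted p = 0.289). In the authors' deposited table WDR43 was the one member under 0.05 in the 5 comparisons read here (eNAMPT against PDGF-BB was not used), with a log2 fold change of -0.27 for eNAMPT over eNAMPT+PDGF-BB, the opposite direction of division, and an adjusted p of 0.0274.

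**Figure D3:**
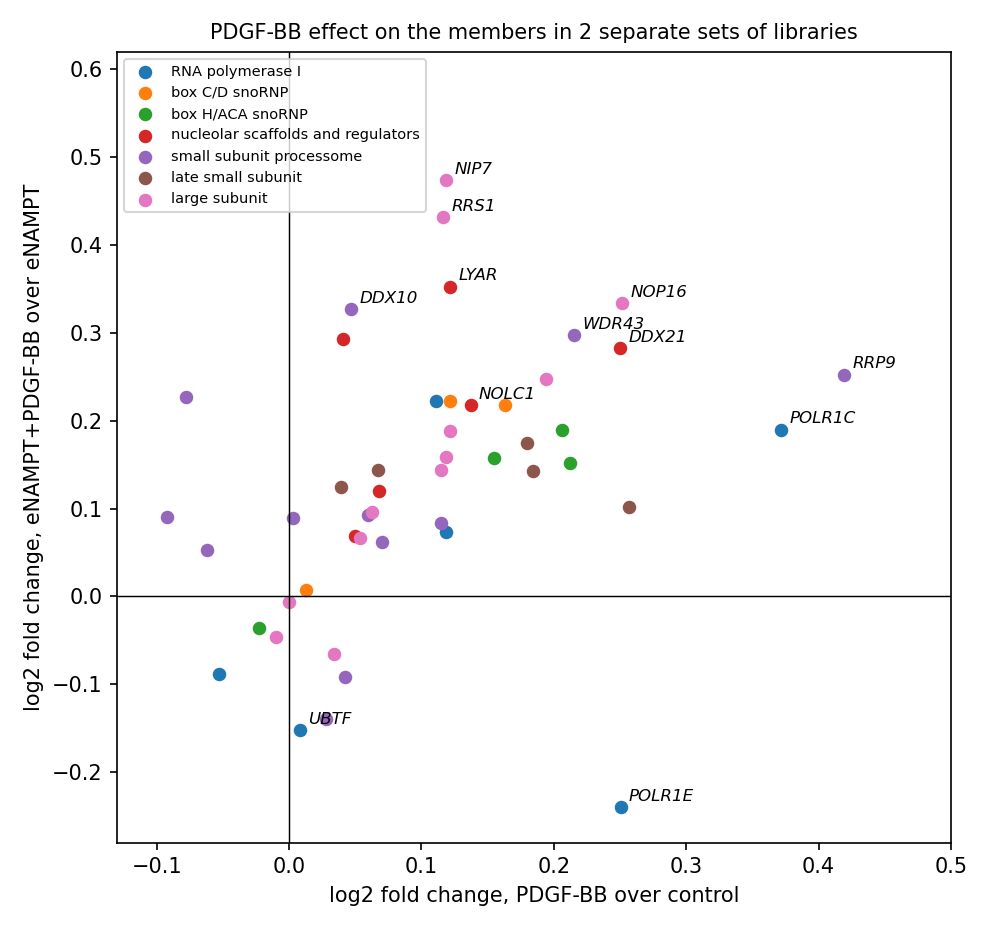
Log2 fold change of each of 48 members for PDGF-BB over control (x axis) and for eNAMPT+PDGF-BB over eNAMPT (y axis), 5 libraries against 5 on each axis and none shared, after TMM scaling. Colours are role groups, and 36 members lie above 0 on both axes. With spike-in scaling the points would sit lower on the y axis, with 25 of 48 above 0.

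No member passed for eNAMPT. Over the 10 libraries with eNAMPT against the 10 without it, 0 of 48 members rose or fell (edgeR), while 0.157% of all genes rose, and 2 members were higher and 1 lower at an unadjusted p under 0.05, against 1.88% of all genes higher and 1.75% lower. DESeq2 also called 0 members, where 0.182% of all genes rose. The members' median was 0.01 (-0.05 with spike-in scaling, where that of all genes was -0.08), and the SE of single members ran from 0.05 to 0.13. The smallest p belonged to NHP2, which averaged 157 CPM ± 17.3 (SD, n = 5) with both proteins, 144 ± 15.6 with PDGF-BB, 161 ± 5.36 with eNAMPT and 146 ± 6.68 in control cells. Its log2 fold change with eNAMPT was 0.13 (SE 0.06, edgeR adjusted p = 1.00). For eNAMPT against control 0 of 48 members passed, where 0.0743% of all genes rose, and 2 were higher and 0 lower at an unadjusted p under 0.05, against 1.92% of all genes higher and 1.68% lower. For both proteins against PDGF-BB 0 of 48 passed, where 0.0578% of all genes rose, with 1 higher and 1 lower at an unadjusted p under 0.05, against 1.78% of all genes higher and 1.62% lower. The interaction called 0 members and 0% of all genes, with 0 members higher and 1 lower at an unadjusted p under 0.05, against 1.59% of all genes higher and 1.76% lower, and 0 under DESeq2, so no difference in the PDGF-BB effect with eNAMPT was detectable.

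EGR1 and NFKBIA were chosen as known responses of these cells to PDGF-BB and eNAMPT, so their values are given as a description. EGR1, an immediate early gene of growth factor signalling, averaged 249.9 CPM ± 27.1 (SD, n = 5) with both proteins, 207 ± 30.2 with PDGF-BB, 91.8 ± 13.1 with eNAMPT and 67.0 ± 5.8 in control cells. NFKBIA, the feedback inhibitor of NF-kB, averaged 245 CPM ± 14.3 with both proteins, 137 ± 10.4 with PDGF-BB, 266 ± 10.1 with eNAMPT and 132 ± 10.6 in control cells. MYC was at 39.8, 50.7, 36.7, 34.7 and 45.3 CPM with both proteins and at 33.4, 36.8, 35.4, 48.1 and 33.5 CPM with PDGF-BB. It was at 25.7, 27.6, 23.7, 27.1 and 25.8 CPM with eNAMPT and at 26.9, 26.8, 29.5, 23.2 and 20.8 CPM in control cells. The 10 libraries with PDGF-BB all exceeded the 10 without it, which 0.421% of all genes did, and the MYC log2 fold change was 0.61 (SE 0.10, edgeR adjusted p = 2.49e-05). Among the members with a promoter window, the 21 tested with the E-box had a median log2 fold change of 0.13 with PDGF-BB and 19 positive estimates, and the 19 without it had a median of 0.08 and 12 positive estimates. This split was made after the values were known, and a part of MYC in it was not tested.

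The members' level also differed between libraries of one group. In each library the median of the 48 members, as the difference of log2 CPM from the mean of all 20 libraries, ran from -0.02 to 0.15 with both proteins, from -0.04 to 0.19 with PDGF-BB, from -0.15 to 0.10 with eNAMPT and from -0.17 to 0.09 in control cells. In all 4 groups the replicate 5 library was the highest. The groups with PDGF-BB and without it overlapped through the replicate 5 libraries of control and eNAMPT cells, and also through control replicate 3 (-0.036), which lay above PDGF-BB replicate 1 (-0.043). What sets the replicate 5 libraries apart is not given in the labels. The count of members that rose over the 10 against 10 libraries, 5 with all libraries, was 8 without control replicate 5, 11 without eNAMPT replicate 5, 2 without PDGF-BB replicate 5 and 3 without eNAMPT+PDGF-BB replicate 5. Shares of all genes in those fits are not given, so these shifts cannot be called particular to the members.

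**Figure D4:**
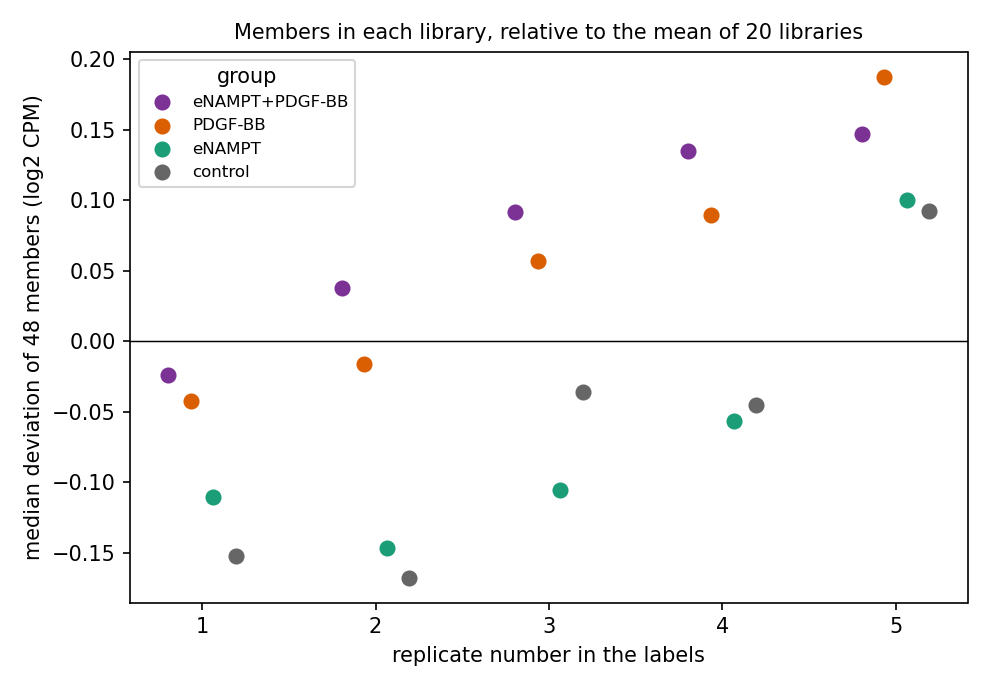
Median over 48 members of the difference in log2 CPM (TMM scaling) from the mean of all 20 libraries (y axis), by the replicate number in the labels (x axis) and by group (colour). Each point is 1 library, and in all 4 groups the highest point is replicate 5.

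Other genes of the same pathway were read beside the members. Of 115 further ribosome biogenesis genes tested, 2 rose and 0 fell over the 10 libraries with PDGF-BB against the 10 without, a share of 1.74% that is below the 2.96% of all genes that rose. Their median log2 fold change was 0.06, and 83 of the 115 estimates were positive. GTPBP4, a GTPase of 60S assembly, was at 178, 150.1, 152, 141 and 179 CPM with both proteins and at 148, 144, 145, 144 and 152 CPM with PDGF-BB. It was at 107, 114, 116, 101 and 147 CPM with eNAMPT and at 137, 124, 118, 116 and 127 CPM in control cells. The groups overlapped only through eNAMPT replicate 5, and the log2 fold change was 0.34 (SE 0.06, edgeR adjusted p = 0.000232). RSL1D1, a nucleolar protein with a ribosomal L1 domain, was at 274 to 306 CPM with both proteins and 260.4 to 274 CPM with PDGF-BB, above 232 to 259 CPM with eNAMPT and 204 to 254 CPM in control cells. Its log2 fold change was 0.23 (SE 0.05, edgeR adjusted p = 0.00172). PWP2, a processome subunit, passed with PDGF-BB against control at 1.20 (SE 0.31, edgeR adjusted p = 0.0326), with 6.51 to 14.6 CPM with PDGF-BB against 2.94 to 5.91 CPM in control cells. In the second count table its estimate was 0.19 (adjusted p = 0.837), and the call was lost without any one of PDGF-BB replicates 2, 3 and 4 or control replicates 2, 4 and 5 (adjusted p up to 0.160), so PWP2 is uncertain.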

How the data were processed

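RNA sequencing of 20 libraries was analysed from the deposited table of raw gene counts. Per the submitters' processing notes, the authors worked on GRCh38 with STAR (2.6.1a) and featureCounts (1.6.4), besides FastQC (0.11.7) and DESeq2 (1.18.1). The same deposited table holds the authors' log2 fold changes and their adjusted p-values. A second deposited table of counts, never lower in any member, served as an alternative.

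The members and gene lists were chosen with earlier results of these data known. The 99 spike-in rows (ERCC and SIRV) were left out. Genes were filtered with filterByExpr, leaving 12111, scaled by TMM, and fitted in one quasi-likelihood model with a mean for each group (edgeR 4.0.16, R 4.3.3, two-sided). Pooled effects average both contrasts of a protein. An SE is the log2 fold change over the square root of F. P-values were adjusted by Benjamini-Hochberg over all genes in each comparison. Named members are those that passed, the 3 smallest p in each comparison, the highest mean CPM of each role group, the lowest PDGF-BB estimate, and those in the authors' table under 0.05. Other members named for a promoter, a complex or a near miss were chosen after their values were seen.

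Tested on simulated data, the pooled PDGF-BB fit recovered 10% of 50 genes changed by 0.2 on the log2 scale, 26% at 0.3, 54% at 0.5 and 88% at 1, with 3 false calls among 11911. The changed genes were drawn from all genes tested, whose median SE in the real data was 0.11, against 0.08 for the members. These rates are therefore not those of the members. Alternatives were DESeq2 1.42.0, limma-voom (limma 3.58.1), RLE and spike-in scaling, 2 filters, the second table, a replicate block, models restricted to the compared groups, a threshold of 0.01 and leaving out each library.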

Additional observations from a re-analysis of the deposited data

Results flagged for a closer look

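Among the 16 members named by rule, 3 of 64 sets of 5 libraries held a value far from the other 4 by Dixon's criterion (gap over range above 0.71), and chance gives about 1 in 20. NOP16 was at 134 CPM in control replicate 5, against 78.8 to 91.9 CPM in the other 4 control libraries. NOP16 was also at 128 CPM in eNAMPT replicate 5, against 85.2 to 94.3 CPM in the other 4. DKC1 was at 523 CPM in eNAMPT replicate 5, against 429 to 453 CPM in the other 4. All 3 are replicate 5 libraries of groups without PDGF-BB.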

How the results depend on the processing

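With spike-in scaling 0 members rose for both proteins against eNAMPT and 0 over the pooled PDGF-BB libraries, against 0.198% and 0.809% of all genes. With this scaling the members' median was 0.011 for both proteins against control, -0.11 against PDGF-BB and 0.0020 against eNAMPT, and -0.12 for the interaction, where the medians of all genes were -0.14, -0.15, -0.14 and -0.16. It also turned NHP2 for both proteins against PDGF-BB to -0.013. Without a filter on low counts, 1 member rose for PDGF-BB against control, 3 for both proteins against control, 4 for both proteins against eNAMPT and 8 over the pooled PDGF-BB libraries. DESeq2 called 1 member (POLR1C) for both proteins against control and 3 against eNAMPT, where 1.78% and 1.52% of all genes rose. For both proteins against eNAMPT, 2 rose with RLE size factors, with at least 10 counts in every library and with only the groups compared. Of all genes, 1.21%, 1.44% and 1.22% rose in those fits. At an adjusted p under 0.01, 0 members passed for both proteins against eNAMPT and 2 over the pooled PDGF-BB libraries. At that threshold 0.809% and 1.92% of all genes rose. The cause of these shifts was not tested.

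Leaving out 1 library at a time gave 2 to 11 members over the pooled PDGF-BB libraries. There were 2 without PDGF-BB replicate 5, 3 without eNAMPT replicate 1 or 2, control replicate 2 or eNAMPT+PDGF-BB replicate 3 or 5, 8 without control replicate 5 or eNAMPT+PDGF-BB replicate 1, and 11 without eNAMPT replicate 5. WDR43 and DDX21 passed in all 20 of these fits. The counts were 0 to 1 for PDGF-BB against control (1 without control replicate 5), 0 to 4 for both proteins against control (4 without control replicate 5, 2 and 1 without eNAMPT+PDGF-BB replicate 1 and 2) and 0 to 4 against eNAMPT (4 without eNAMPT replicate 5, 2 without eNAMPT+PDGF-BB replicate 2, 0 without eNAMPT replicate 1, 2 or 3 or eNAMPT+PDGF-BB replicate 3 or 5). Here too the shares of all genes are not given, so the counts have no background to stand against.

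The replicate numbers are not stated to pair the libraries, and of 30 same-numbered pairs 12 had correlated deviations over 0.1 (0.00138 to 0.176), with 12 of 20 libraries closest to their own number. With the replicate block the members rising numbered 3 for PDGF-BB against control, 10 for both proteins against control, 10 against eNAMPT and 15 over the pooled PDGF-BB libraries. Of all 12111 genes, 2.47%, 3.18%, 2.96% and 5.23% rose in those comparisons with the block. At each of the 5 numbers the members' median was higher with PDGF-BB than in control cells, and higher with both proteins than with eNAMPT. In the simulated pooled PDGF-BB fit, 10% of genes changed by 0.2 on the log2 scale were called, and 26% of those changed by 0.3. Those genes were drawn from all genes tested, so the rates are not the members' own. Among the members, WDR43, DDX21, LYAR and NOP16 passed with rises of 0.26, 0.27, 0.24 and 0.29.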
